A study of Mus musculus with 16 samples.

Results

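The genes described here are 8 that are commonly used to mark basophils and mast cells or that make histamine: Hdc, Ms4a2, Cpa3, Mcpt8, Prss34, Fcer1a, Gata2 and Cd200r3. They were chosen by symbol, with results of the comparison of Nrp1 high against Nrp1 low monocytes already known, so their differences in that comparison are given as a description. Of the 8 genes, 7 had a row in the RNA count table of 25562 genes and all 7 passed the filter on low counts, which left 15541 genes. Fcer1a had no row there. No row of that table is 0 throughout, and whether a lack of counts is why Fcer1a is missing was not tested. In the ATAC-seq table, which lists open chromatin regions and the gene each was assigned to, 12 of 40796 regions belonged to 3 of the 8 genes.

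The samples were monocytes sorted from the spleens of wild type C57BL/6 mice (C57BL/6J for RNA) at 7 days of age and divided by whether they carried much or little Nrp1, a receptor protein (neuropilin-1) that binds semaphorins and VEGF, on their surface. There were 3 Nrp1 high and 3 Nrp1 low RNA libraries of 80000 cells, and 5 and 5 ATAC-seq libraries of 50000 cells. No treatment, deletion or transgene is named for any sample. The labels speak of pooled RNA without naming the animals behind each library, so the spread between libraries may be technical. Total counts ran from 23395363 to 35127433 per RNA library. Nrp1 low replicate 1 had the highest total but the fewest genes with a count, 18725 against 19234 to 20231. Its log2 levels correlated with those of low replicates 2 and 3 at 0.963 and 0.977 (Pearson). The other pairs of libraries within a group stood at 0.980 to 0.988. The labels also call the cells myeloid-derived suppressor cells, and monocyte markers were present in both fractions: Ly6c2 stood at 2070 ± 503 CPM (counts scaled to a library total of 1000000; mean ± SD, n = 3) in Nrp1 low and 2018 ± 252 in Nrp1 high, and Csf1r, the receptor for M-CSF, at 420 ± 46.6 and 482 ± 16.3. Some differed without overlap. Ccr2 (463 ± 143 and 810 ± 122) and F13a1 (518 ± 96.7 and 881 ± 36.8) were higher in Nrp1 high, and Cd14 was lower (47.4 ± 16.8 and 18.9 ± 6.24).

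Basophils and mast cells are granulocytes that carry IgE on a high-affinity receptor and release stored histamine and proteases when the receptor is crosslinked. Histamine is made from histidine by histidine decarboxylase, the product of Hdc, which is also transcribed in immature myeloid cells of the granulocyte lineage. Fcer1a encodes the IgE-binding alpha chain of the receptor and Ms4a2 its beta chain, which amplifies the signal. Mcpt8 and Prss34 encode serine proteases typical of mouse basophils, Cpa3 encodes a carboxypeptidase stored with histamine in granules, Cd200r3 an activating receptor of basophils and mast cells, and Gata2 a zinc finger transcription factor that both lineages and blood progenitors need.

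The 250 bases before an annotated start of 4 of these genes are shown, from RefSeq on GRCm38.p6. That start need not be the outermost one of the gene. The Hdc window lies wholly inside the gene span given below, and the Ms4a2 and Cd200r3 windows lie partly inside theirs. Hdc is shown because an open region lies over its start. Prss34 and Cd200r3 are examples of genes whose means, too, were lower in Nrp1 high. Ms4a2 was the 1 measured gene with a higher mean there. Mcpt8, Cpa3 and Gata2 also had lower means in Nrp1 high, and their windows are not printed. All 8 genes matched a RefSeq promoter. Each sequence runs 5′ to 3′ along the gene's strand, and capitals mark matches on either strand to the GATA motif, searched as AGATAA with its variant AGATAG and as TGATAA with its variant TGATAG.
Hdc, chr2:126618679-126618928, minus strand: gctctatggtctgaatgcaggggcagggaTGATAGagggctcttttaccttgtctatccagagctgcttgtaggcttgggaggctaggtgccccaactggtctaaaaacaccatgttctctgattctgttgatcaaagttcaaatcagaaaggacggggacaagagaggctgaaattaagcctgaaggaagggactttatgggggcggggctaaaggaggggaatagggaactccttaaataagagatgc
Prss34, chr17:25298144-25298393, plus strand: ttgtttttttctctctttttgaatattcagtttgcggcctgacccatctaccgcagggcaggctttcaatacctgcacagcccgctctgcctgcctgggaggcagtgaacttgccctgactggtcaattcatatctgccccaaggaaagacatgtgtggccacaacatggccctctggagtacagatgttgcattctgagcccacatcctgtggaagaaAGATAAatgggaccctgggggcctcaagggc
Ms4a2, chr19:11623720-11623969, minus strand: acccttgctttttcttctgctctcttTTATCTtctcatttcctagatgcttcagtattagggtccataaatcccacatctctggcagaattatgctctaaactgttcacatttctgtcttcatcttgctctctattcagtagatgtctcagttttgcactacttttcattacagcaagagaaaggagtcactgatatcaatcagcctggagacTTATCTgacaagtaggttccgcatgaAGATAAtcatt
Cd200r3, chr16:44943428-44943677, plus strand: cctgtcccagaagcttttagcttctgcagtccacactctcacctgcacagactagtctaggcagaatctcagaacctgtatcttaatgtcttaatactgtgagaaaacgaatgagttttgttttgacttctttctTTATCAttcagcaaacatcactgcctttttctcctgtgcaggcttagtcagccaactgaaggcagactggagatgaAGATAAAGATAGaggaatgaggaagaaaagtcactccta
The Hdc window held 1 match, 221 bases before the start, and the Prss34 window 1 match 31 bases before it. The Ms4a2 window held 3, at 224, 37 and 11 bases, and the Cd200r3 window 3, at 115, 39 and 33 bases, of which the last 2 adjoin. Cpa3 had 1 match 46 bases before its start and Fcer1a 1 at 92 bases. No match lay in the windows of Mcpt8 and Gata2, the latter with 2 annotated starts. The Mcpt8 window also lies inside its gene span. The Hdc match, the Ms4a2 matches at 37 and 11 bases and the Cd200r3 matches at 39 and 33 bases lie inside the RefSeq spans too. Thus 6 of the 8 genes had a match, and 26.5% of all 32851 RefSeq promoter windows of this length did. The other 3 motifs were searched on both strands. The RUNX motif TGTGGT was found in 3 of the 8 genes and 14.0% of all windows, the C/EBP motif TTGCNNAA in 2 and 9.56%, and the STAT motif TTCNNNGAA in 0 and 7.02%. These are letter matches in a window and do not show binding.

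Of the 7 measured genes, Hdc differed most between the fractions and was lower in Nrp1 high. It lies on chromosome 2 from 126593659 to 126624025 (ENSMUSG00000027360); gene positions here and for the other genes are those of RefSeq on GRCm38.p6. The Nrp1 low libraries held 46.1, 31.0 and 35 CPM of Hdc in replicates 1, 2 and 3, and the Nrp1 high libraries 7.23, 10.9 and 9.82 CPM. All 3 high libraries thus lay below all 3 low libraries, and the lowest low library was well above the highest high library. The means were 37.4 ± 7.81 and 9.33 ± 1.91 CPM (SD, n = 3), a ratio of 4.01, and the log2 fold change was -2.0 ± 0.28 (SE). By edgeR's quasi-likelihood test, adjusted over the 15541 genes by Benjamini-Hochberg, Hdc was the 1 member of 7 called lower at an adjusted p under 0.05 (0.0212), and 0 were called higher. Over all genes tested 0.682% were called, 0.676% lower and 0.00643% higher. Nothing is read from this count, since the gene was chosen with this result known. The call was lost in edgeR fits without Nrp1 low replicate 3 (adjusted p = 0.126), high replicate 1 (0.13), high replicate 2 (0.0723) or high replicate 3 (0.177), while the log2 fold change lay between -2.12 and -1.82 over the fits that leave out 1 library.

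**Figure D1:**
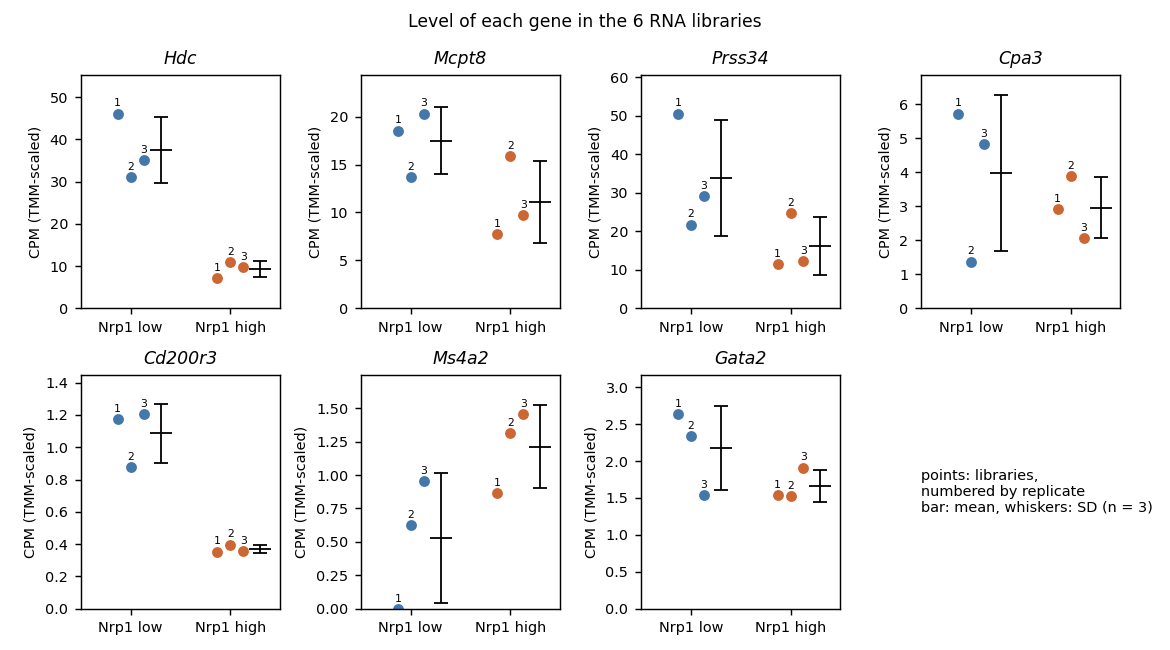
The 7 genes with a row in the count table, in CPM at TMM-scaled library sizes (vertical axes, each from 0), for 3 Nrp1 low and 3 Nrp1 high RNA libraries; points are libraries numbered by replicate, the bar is the mean and the whiskers the SD. Hdc and Cd200r3 show no overlap between the fractions, with Hdc at 31.0 CPM or more in Nrp1 low and at most 10.9 CPM in Nrp1 high, while the other 5 genes overlap.

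The basophil proteases were lower in Nrp1 high by their means, with overlap between the fractions. Mcpt8 (ENSMUSG00000022157, chromosome 14, 56082163 to 56085499) stood at 18.5, 13.7 and 20.3 CPM in the low libraries and at 7.71, 15.9 and 9.69 CPM in the high libraries. High replicate 2 was above low replicate 2, and the other high libraries were below all low libraries. The Mcpt8 log2 fold change was -0.66 ± 0.34 (SE), and -1.0 without Nrp1 high replicate 2. Prss34 (ENSMUSG00000056399, chromosome 17, 25298394 to 25300168) stood at 50.6, 21.8 and 29.2 CPM in the low libraries and at 11.6, 24.8 and 12.2 CPM in the high libraries. Here too high replicate 2 reached into the low range, and low replicate 1 stood apart at the top. The Prss34 log2 fold change was -1.06 ± 0.42 (SE), -1.5 without high replicate 2 and -0.65 without low replicate 1. Mcpt8 belongs to a cluster of related protease genes, so reads may have been split between copies.

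Cpa3, the granule carboxypeptidase, showed no separation of the fractions. Cpa3 (ENSMUSG00000001865, chromosome 3, 20215616 to 20242209) stood at 5.72, 1.38 and 4.83 CPM in Nrp1 low and at 2.92, 3.88 and 2.07 CPM in Nrp1 high. Low replicates 1 and 3 were above all high libraries and low replicate 2 below them all. Its log2 fold change was -0.43 ± 0.56 (SE), -0.07 without Nrp1 low replicate 1 and -0.84 without low replicate 2.

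The receptor genes differed from each other. Cd200r3 (ENSMUSG00000036172, chromosome 16, 44943596 to 45058365) stood at 1.18, 0.877 and 1.21 CPM in Nrp1 low and at 0.354, 0.398 and 0.356 CPM in Nrp1 high, with a log2 fold change of -1.55 ± 0.73 (SE). The fractions did not overlap for Cd200r3, but these levels rest on 21 to 37 counts per low library and 11 to 13 per high library. Cd200r3 belongs to a family of related receptor genes, so reads may have been split between copies. Hdc and Cd200r3 were the 2 members of 7 whose high libraries all lay below the low libraries, as in 10.8% of all genes tested.

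Ms4a2 was the only measured gene of the 8 with a higher mean in Nrp1 high. Ms4a2 (ENSMUSG00000024680, chromosome 19, 11615517 to 11623790) was counted 0, 15 and 23 times in Nrp1 low and 27, 43 and 45 times in Nrp1 high, or 0, 0.626 and 0.957 CPM against 0.868, 1.31 and 1.46 CPM. Low replicate 3 lay above high replicate 1, so the fractions overlapped. The Ms4a2 log2 fold change was 1.21 ± 1.20 (SE), 0.61 without Nrp1 low replicate 1, the library with a count of 0, 1.96 without low replicate 3 and 2.76 with limma-voom.

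Gata2, the transcription factor, overlapped between the fractions. Gata2 (ENSMUSG00000015053, chromosome 6, 88193891 to 88207032) stood at 2.64, 2.34 and 1.54 CPM in Nrp1 low and at 1.54, 1.53 and 1.91 CPM in Nrp1 high, with a log2 fold change of -0.39 ± 0.47 (SE). It was -0.22 without Nrp1 low replicate 1 and -0.59 without low replicate 3. Low replicate 3 lay among the high libraries. Over the 7 genes the median log2 fold change was -0.66 and 6 lay below 0, while over all genes tested the median was 0.01 and 49.4% lay below 0. In bulk libraries such as these, fewer cells of a type and less RNA per cell cannot be told apart.

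Ratios of 2 genes within a library do not depend on how libraries are scaled against each other. Hdc counts per Mcpt8 count were 2.49, 2.27 and 1.72 in Nrp1 low and 0.938, 0.690 and 1.01 in Nrp1 high. The fractions did not overlap, and the geometric mean ratio was 2.46 times as high in Nrp1 low. Hdc counts per Prss34 count were 0.911, 1.43 and 1.20 in the low and 0.625, 0.441 and 0.802 in the high libraries, again without overlap and 1.92 times as high in Nrp1 low. Hdc was thus lower in Nrp1 high also relative to the 2 basophil proteases in the same library. Prss34 counts per Mcpt8 count were 2.73, 1.59 and 1.44 in the low and 1.5, 1.56 and 1.26 in the high libraries, which overlapped. Cd200r3 counts per Mcpt8 count were 0.0635, 0.0642 and 0.0594 in the low and 0.0458, 0.0251 and 0.0368 in the high libraries, without overlap. Cpa3 and Gata2 counts per Mcpt8 count overlapped and were lower in Nrp1 low, at 0.72 and 0.786 times their geometric mean in Nrp1 high. These ratios were computed after the levels were seen and were not tested, and the size of each also depends on the lengths of the 2 transcripts.

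**Figure D2:**
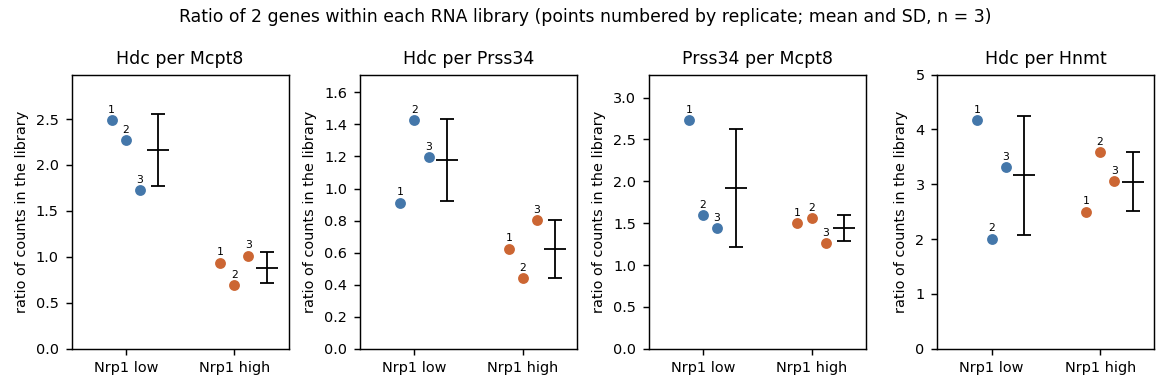
Ratio of the counts of 2 genes within each RNA library (vertical axes, each from 0) for 3 Nrp1 low and 3 Nrp1 high libraries; points are libraries numbered by replicate, with the mean and SD at their right. Hdc per Mcpt8 was at least 1.72 in Nrp1 low and at most 1.01 in Nrp1 high, while Prss34 per Mcpt8 and Hdc per Hnmt overlapped between the fractions.

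Open chromatin at these genes was taken from the authors' deposited table, whose log2 fold is Nrp1 high against low by the name the labels give the comparison. Of the 12 regions of members, 2 had an FDR under 0.05 in the authors' deposited table, both lower in Nrp1 high, and 0 were higher. Of all its regions 7.55% had such an FDR, 4.99% lower and 2.56% higher. The median log2 fold in the authors' deposited table was -0.11 over the 12 regions and -0.09 over all regions. These 12 were 4 of Hdc, 7 of Cd200r3 and 1 of Prss34. Positions are on GRCm38 as deposited, and the table gives each region 1 value for the comparison, with none per library.

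At Hdc, regions of the same gene had folds of opposite sign. The main start is taken here as that of transcript ENSMUST00000028838, and the RefSeq span of Hdc extends beyond it. The region over the main start, at 126618467 to 126618866 on chromosome 2, had a log2 fold of 0.73 in the authors' deposited table, with an FDR of 0.0819. It shares 188 bases with the Hdc promoter window printed above. The region at 126607478 to 126607877 had a log2 fold of -1.22 and an FDR of 0.00785 in the authors' deposited table. That table annotates it as a promoter because it covers the start of a shorter Hdc transcript (ENSMUST00000132382), and its centre lies 11001 bases inside the gene from the main start. The regions in intron 7 of 11 and in the 3′ UTR had log2 folds of 0.02 and -0.41 in the authors' deposited table (FDR 0.953 and 0.428). So the transcript was lower in Nrp1 high, the internal region was less open there, and the region at the main start had a fold above 0 that did not pass the FDR. The authors' deposited table alone does not tell which transcript was made.

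At Cd200r3 and Prss34, the 2 other genes with regions, 1 region passed. It lies on chromosome 16 at 45004529 to 45004928 and had a log2 fold of -1.15 and an FDR of 0.0271 in the authors' deposited table. Its neighbours at 44993327 to 44993726 and at 45005191 to 45005590 had log2 folds of -0.60 and -0.67 in the authors' deposited table (FDR 0.0637 and 0.150). The other 4 regions of Cd200r3 had log2 folds from -0.24 to 0.25 in that table. It annotates the region that passed as distal intergenic, 39275 bases after the start of the nearest Cd200r3 transcript, while RefSeq's longer Cd200r3 model spans it. The region of Prss34 lies 9271 bases before its start and had a log2 fold of 0.14 in the authors' deposited table (FDR 0.842). No region was assigned to Mcpt8, Cpa3, Ms4a2, Gata2 or Fcer1a.

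**Figure D3:**
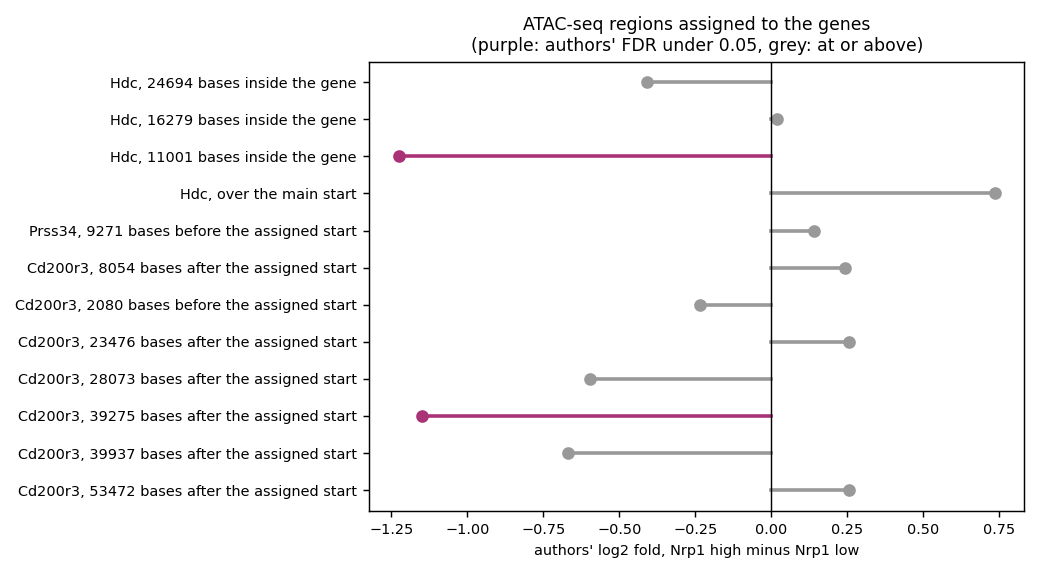
Log2 fold of each of the 12 ATAC-seq regions of Hdc, Prss34 and Cd200r3 in the authors' deposited table (horizontal axis, Nrp1 high minus Nrp1 low). Regions are listed by position on the chromosome within each gene. Labels give the distance from the main start for Hdc and from the assigned transcript's start for the others. Purple marks an FDR under 0.05. The 2 purple regions stand at -1.22 (Hdc) and -1.15 (Cd200r3), and the region over the main start of Hdc at 0.73.

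Other genes of histamine handling were compared next. Hnmt, which encodes the histamine N-methyltransferase that inactivates histamine inside cells, fell in Nrp1 high. Hnmt stood at 11.1, 15.4 and 10.6 CPM in the low libraries and at 2.89, 3.06 and 3.21 CPM in the high libraries, without overlap. Its log2 fold change was -2.02 ± 0.31 (SE), and edgeR's adjusted p, taken over the whole table, was 0.0310. The Hnmt call was lost when Nrp1 low replicate 2 was left out (adjusted p = 0.0962), and likewise for low replicate 3 (0.135), high replicate 1 (0.194), high replicate 2 (0.127) or high replicate 3 (0.206), and with library totals alone (0.0916). Hdc counts per Hnmt count were 4.17, 2.01 and 3.31 in the low and 2.5, 3.58 and 3.06 in the high libraries, so the genes for making and for inactivating histamine kept overlapping ratios. The region over the start of Hnmt had a log2 fold of -0.23 in the authors' deposited table (FDR 0.665). Slc18a2, the transporter that loads histamine into granules, and Hrh2, a histamine receptor, had log2 fold changes of 0.53 ± 0.85 and -0.15 ± 0.54 (SE) and overlapped. Hrh1 and Hrh4 had no row in the count table. Of the 9 genes of this list, which holds Hdc, 5 were tested and 2, Hdc and Hnmt, were called lower. Over all genes tested 0.676% were called lower, and Hdc was chosen with its result known.

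Genes of IgE receptor signalling gave no calls. Of 19 listed, 18 were tested, including Ms4a2, and 0 were called by edgeR at an adjusted p under 0.05, with a median log2 fold change of 0.19. At an unadjusted p under 0.05 in edgeR there were 4, where 11.2% of all genes tested had such a p, and DESeq2 called 1. The 3 with the lowest p were Cd200r1, an inhibitory receptor of myeloid cells, at -1.41 ± 0.38 (SE), and the signalling genes Grap2, an adaptor, at 1.14 ± 0.38 and Fyn, a Src family kinase, at 0.74 ± 0.31. The other of the 4 was Lcp2, an adaptor downstream of Syk family kinases, at -0.58 ± 0.25, so 2 lay on each side of 0. The 1 gene called by DESeq2 was Cd200r1 (adjusted p = 0.0290), whose edgeR adjusted p was 0.262.

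Other basophil genes also gave no calls by edgeR. Of 22 listed, 20 were tested and 0 called, with 3 at an unadjusted p under 0.05 (11.2% of all genes), 1 called by DESeq2 and a median log2 fold change of 0.01. Slpi, a protease inhibitor, had -1.35 ± 0.30 (SE) and Cd69, an activation marker, -1.12 ± 0.37. Slpi was called by DESeq2 (adjusted p = 0.00324) and by edgeR without Nrp1 low replicate 2 (adjusted p = 0.0402). Il3ra, the alpha chain of the receptor for interleukin-3, the main growth factor of basophils, had 0.80 ± 0.34, at 13.4, 32.9 and 30.1 CPM in the low and 48.1, 39.0 and 46.1 CPM in the high libraries. For Il3ra all high libraries were above all low ones, as in 9.51% of all genes tested, and its log2 fold change was 0.50 without Nrp1 low replicate 1. Itga2, the integrin chain used to sort basophils, stood between 0.208 and 1.38 CPM in the 6 libraries.

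Among the other mast cell genes, 3 of 14 tested were called, all lower, where 0.676% of all genes tested were called lower. These 3 are also transcribed in other granule-bearing myeloid cells. Of the 14, 11 lay below 0 and 3 above, with a median of -0.66. At an unadjusted p under 0.05 in edgeR there were 5 (11.2% of all genes). Beside the 3 called, these were Hpgds at -0.91 ± 0.31 (SE), without overlap, and Kit at -1.30 ± 0.56. Cd63, a tetraspanin of granule membranes, had a log2 fold change of -2.73 ± 0.27 (SE; adjusted p = 0.00460). Alox5, the 5-lipoxygenase of leukotriene synthesis, fell from 131 ± 40.2 to 28.9 ± 6.17 CPM (adjusted p = 0.0149). Srgn, the proteoglycan core that holds granule contents, fell from 341 ± 37.8 to 143 ± 18.5 CPM (adjusted p = 0.0310). These p are edgeR's, adjusted over the whole table. The calls were lost without Nrp1 high replicate 3 (0.0644 for Cd63, 0.117 for Alox5 and 0.292 for Srgn); those of Alox5 and Srgn were also lost without low replicate 3 (0.0751 and 0.197), high replicate 1 (0.0941 and 0.111) or high replicate 2 (0.0694 and 0.127), and that of Srgn with library totals alone (0.0516). The genes that mark mast cells alone were scarce: of 28 listed genes 9 had no row in the table, among them the proteases Mcpt4 and Tpsab1 and the receptor Mrgprb2. Tpsb2, a mast cell tryptase, had a count of 0 in 3 of 6 libraries and at most 1.03 CPM, and Cma1, a chymase, 0.250 to 0.764 CPM. Kit, the stem cell factor receptor of mast cells and progenitors, stood at 6.58, 24.2 and 9.37 CPM in the low and 3.73, 3.88 and 8.65 CPM in the high libraries, which overlapped.

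No transcription factor of the list was called. Of 23 tested, 10 lay below 0 and 13 above, with a median log2 fold change of 0.26. EdgeR and DESeq2 called 0 each, and 4 had an unadjusted p under 0.05 in edgeR, against 11.2% of all genes. Spi1, the PU.1 factor of myeloid cells, had -0.62 ± 0.25 (SE), Nfe2, a factor of megakaryocytes and erythroid cells, -0.58 ± 0.22, and Bhlhe40, a basic helix-loop-helix factor, -0.63 ± 0.27. The other of the 4 had the opposite sign: Runx1, a core factor of blood cell formation, had 0.61 ± 0.26. Gata1, which acts with Gata2 in these lineages, stood at 28.6, 19.1 and 21.6 CPM in the low and 12.6, 21.7 and 11.8 CPM in the high libraries, where high replicate 2 again reached the low range. Over the 5 lists together, 77 genes other than the 8 were tested. Of these, 4 were called lower and 0 higher, with a median of -0.02. Over all genes tested 0.676% were called lower and 0.00643% higher.

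**Figure D4:**
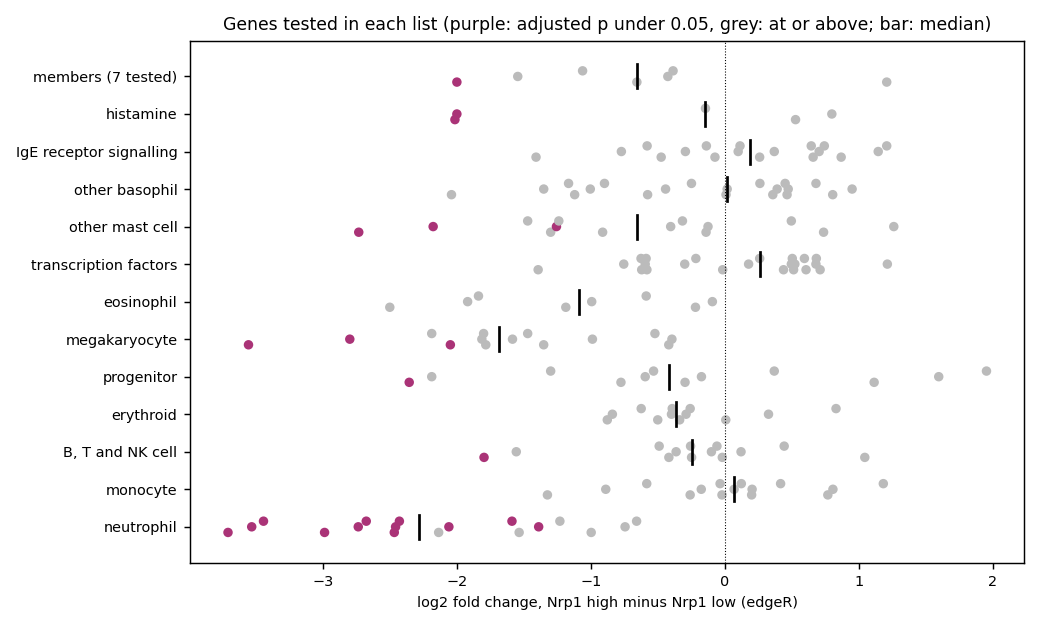
Log2 fold change, Nrp1 high minus Nrp1 low (horizontal axis), of every tested gene in each list; each point is a gene, purple where edgeR's adjusted p was under 0.05, and the black bar is the list's median. The histamine list holds Hdc and Hnmt as its 2 purple points, the transcription factor, IgE receptor signalling, other basophil, eosinophil, erythroid and monocyte lists hold none, and the neutrophil list lies below 0 throughout. The histamine and IgE lists include members.

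Markers of several other cell types were lower in Nrp1 high beside Hdc. Over all genes tested edgeR called 0.676% lower, the share to set beside each count of called genes here. In the neutrophil list 12 of 18 genes were called lower by edgeR. Its 18 log2 fold changes were all negative (median -2.28), and their summed level ran from 53150 to 85780 CPM in the low libraries and from 9596 to 12270 in the high libraries. In the eosinophil list all 8 tested genes lay below 0, of which edgeR called 0, with 4 at an unadjusted p under 0.05 (11.2% of all genes), and DESeq2 called 2. Epx, eosinophil peroxidase, stood at 5.40, 4.63 and 6.87 CPM in the low and 0.932, 0.489 and 1.56 CPM in the high libraries. Siglecf, a surface lectin of eosinophils, stood at 15.6, 11.9 and 14.2 against 3.37, 1.68 and 5.96 CPM. The summed level of the eosinophil list overlapped, at 161.5 to 223.2 CPM against 104.8 to 191.4, most of it from Ear2, a ribonuclease gene with close copies, with a log2 fold change of -0.09. All 14 tested megakaryocyte genes lay below 0, 3 of them called, and their sum ran from 77.2 to 96.1 against 22.6 to 31.0 CPM. Of 12 tested progenitor genes 8 lay below 0 and 4 above, and 1 was called, Prom1, a stem cell membrane glycoprotein, with a log2 fold change of -2.36. Flt3 and Meis1 of the same list went the other way without overlap, at 1.11 ± 0.36 and 1.60 ± 0.68 (SE), and were not called. Summed levels of the erythroid list, mostly from globin genes, were 3732 to 6711 against 3652 to 4418 CPM and overlapped. Those of the monocyte list, 34010 to 48380 against 29680 to 38200 CPM, also overlapped. Most of the monocyte sum came from Lyz2, with a log2 fold change of -0.58. Of 15 monocyte genes, all high libraries lay above all low ones in 4 and below in 2. Over all genes tested these shares were 9.51% and 10.8%. Of 13 B, T and NK cell genes 1 was called, Nkg7, a cytotoxic granule gene, at -1.80. The part of any of these cells in the levels of the 8 genes was not tested.

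The genes whose pattern over the 6 RNA libraries was most like that of Hdc were picked by the smallest root mean square difference of centred log2(CPM + 1), among 9438 genes with a mean of at least 5 CPM. They were Cldn15, a claudin (0.0934), Gatm, the enzyme of the initial step of creatine synthesis (0.121), Lta4h, which makes leukotriene B4 (0.122), Trem3, a myeloid receptor (0.148), and Hvcn1, a voltage-gated proton channel (0.148). Lta4h, for example, stood at 1279, 839 and 907 CPM in the low and 205, 269 and 229 CPM in the high libraries, which is the same order of libraries as for Hdc in each fraction. The genes most like the mean profile of the 7 members were Myl12b, Atp6v0c, Nfe2, Tecr and Atxn10, at differences of 0.054 to 0.0574. Of these 10 genes, only Nfe2, of the transcription factor list, was in a list used here. Predicted genes with Gm or Rik names were left out of this ranking, and a likeness over 6 libraries mostly follows the difference between the fractions.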

How the data were processed

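RNA and open chromatin were measured in the 16 samples described above, and groups and replicate numbers came from the sample titles. For RNA the authors deposited estimated counts per gene, whole numbers on GRCm38; per the submitters' processing notes, HISAT2 and StringTie were used, in roles and versions that are not stated. Strand is not stated, which leaves overlapping genes uncertain. The ATAC-seq table deposited by the authors gives per region the log2 fold of their comparison with its p-value and FDR. The same notes name ChIPseeker, DiffBind, MACS2, DESeq2 and edgeR, again without roles, and do not say which libraries entered. Its name points to edgeR and the labels' wording to DESeq2, and this was not settled. Depth of the ATAC-seq libraries is unknown.

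Genes were kept with filterByExpr, scaled by TMM and compared between the groups, with no covariate, by the robust quasi-likelihood test of edgeR 4.0.16 (R 4.3.3), with Benjamini-Hochberg adjustment over 15541 genes and calls under 0.05. CPM are at TMM-scaled library sizes. Precision is limited by 3 libraries a group. Alternatives were DESeq2 1.42.0, limma-voom (limma 3.58.1), other scalings and filters, the replicate number as a block and leaving out each library. The fits were tested on simulated data. The 8 genes and all 12 lists were chosen with earlier results of these data known. Named are the 8 genes, the called genes of each pathway list or its 3 of lowest p, and the 5 genes most like Hdc and most like the members' mean; the other genes named in the lists were chosen after their values were seen. Of 197 list entries, 185 matched the table by symbol. Same-numbered RNA libraries of the 2 groups had correlations of deviations from group means of -0.342, -0.394 and 0.0321. Differently numbered ones ran from -0.261 to 0.489. With 3 libraries a group these values cannot tell whether any high and low libraries came from the same animals.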

Additional observations from a re-analysis of the deposited data

How the results depend on the processing

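The number of the 8 genes called lower was 1 with RLE, upper-quartile and library-total scaling, DESeq2, limma-voom and both other filters. It was 0 with the replicate block, and 0 to 1 over the fits that leave out 1 library. Genes called over the whole table were 106 in the reported fit, 403 with DESeq2, of which 77 were higher, 0 with the replicate block (943 at unadjusted p under 0.05) and 0 to 125 when 1 library was left out (909 at unadjusted p under 0.05 without Nrp1 high replicate 3, where 0 were called). Of the 77 pathway genes other than the 8, 4 were called lower in the reported fit, 2 with library totals alone, 0 with the replicate block and 0 to 4 when 1 library was left out. The cause of these differences was not tested. Whether same-numbered libraries share animals is not stated, so it is unknown whether the block is apt. Under the block the Hdc log2 fold change was -2.0 ± 0.38 (SE), with an edgeR adjusted p of 0.237. With library totals the median shift of log2 fold changes over the table was 0.189, and the 7 genes kept their sign under all settings that gave a value. Ms4a2 and Cd200r3 had no value with a minimum of 1 CPM in 3 libraries. Over 29 single genes and 404 values under the alternatives, 48 lost a call, 3 gained 1 and 0 changed sign. Of the regions of the 8 genes, 1 passed an FDR under 0.01 and 1 passed when regions were limited to 3000 bases from a start, in place of 2. The alternatives on the pathway genes that are not among the 8 were added after seeing the data. Low counts limit Cd200r3 and Ms4a2, and no ATAC-seq library could be left out.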
